A study of Mus musculus with 6 samples.

Results

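Mouse bone marrow holds few T cells. Their receptor genes were followed here in marrow labelled as control medium or as medium conditioned by kidney tumour cells. The set was the T cell receptor complex and its signalling genes, 9 of the 45706 genes in the count file: the receptor chains Cd3d, Cd3e, Cd3g and Cd247, the kinases Lck and Zap70, the coreceptors Cd8a and Cd4, and the cytokine receptor gene Il7r. The genes were taken by name, with earlier results of these data known. All 9 passed the filter on low counts.

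The libraries were bulk RNA-seq of mouse bone marrow, 2 in control medium and 4 in conditioned medium. The 4 media had been conditioned by 4 clear cell renal cell carcinoma (ccRCC) lines, VpR83, VpR99, VpR126 and VpR2020. Each line gave 1 library, so the lines stood in as replicates. The headers of the VpR83, VpR99 and VpR126 columns hold Ctrl, T1 and LT2, tags that differ between the lines and are not explained by the labels. The sources used here do not give strain, age, genotype or culture time. They also do not tie the libraries to separate mice or cultures, and p-values therefore measure only the spread between these samples, which may be technical. Labels of the comparator name control medium, while the study's design text speaks of marrow fresh from the animal, so time in culture and the medium cannot be told apart.

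The T cell receptor recognises peptide on MHC molecules but has no signalling tail of its own. It is carried by CD3 delta, epsilon and gamma and by the zeta chain (Cd247), whose tails hold tyrosine motifs called ITAMs. The kinase LCK, brought in by the coreceptors CD4 or CD8, phosphorylates the ITAMs, which then bind and activate the kinase ZAP70. In marrow these genes are carried mainly by recirculating T cells, while NK cells also use Cd247, Lck and Zap70, some dendritic cells and macrophages carry CD4 or CD8 alpha, and lymphoid precursors carry the interleukin 7 receptor (Il7r).

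The 3 CD3 genes lie in 1 cluster on mouse chromosome 9 (GRCm38). Cd3g (ENSMUSG00000002033, minus strand, 44969572 to 44980431) and Cd3d (ENSMUSG00000032094, plus strand, 44981786 to 44987339) are transcribed away from each other from starts 1355 bases apart, and Cd3e (ENSMUSG00000032093, minus strand, 44998740 to 45009627) lies beyond Cd3d. The 250 bases before each RefSeq start are shown (GRCm38.p6, 5′ to 3′ on the gene's strand), with matches to CACCTG, an E-box that E-protein transcription factors can bind, in capitals. A link between these sequences and the values below was not tested.
Cd3d, chr9:44981536-44981785, plus strand: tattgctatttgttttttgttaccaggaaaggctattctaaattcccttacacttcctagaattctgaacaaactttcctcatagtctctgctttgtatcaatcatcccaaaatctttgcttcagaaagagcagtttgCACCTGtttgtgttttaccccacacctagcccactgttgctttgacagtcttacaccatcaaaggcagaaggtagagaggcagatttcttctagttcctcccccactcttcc
Cd3g, chr9:44980432-44980681, minus strand: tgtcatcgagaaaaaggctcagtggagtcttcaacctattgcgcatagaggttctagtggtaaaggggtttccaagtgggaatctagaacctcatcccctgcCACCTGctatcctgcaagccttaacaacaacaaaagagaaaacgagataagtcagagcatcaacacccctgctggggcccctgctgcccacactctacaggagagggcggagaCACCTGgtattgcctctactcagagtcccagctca
Cd3e, chr9:45009612-45009861, minus strand: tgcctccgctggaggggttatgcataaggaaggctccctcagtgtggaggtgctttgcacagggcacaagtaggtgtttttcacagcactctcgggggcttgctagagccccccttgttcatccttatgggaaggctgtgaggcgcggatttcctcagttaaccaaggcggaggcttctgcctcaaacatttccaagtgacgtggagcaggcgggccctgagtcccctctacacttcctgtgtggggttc
CACCTG, searched on both strands, occurred 1 time in the Cd3d window, 2 times in that of Cd3g and 0 times in that of Cd3e. It was found in 17.2% of all 32817 promoter windows of this length. The letters were chosen after the windows were read, and they are part of the wider E-box pattern CANNTG, which was in 66.2% of windows and in all 3 shown. The RUNX core TGTGGT (14.0% of windows) and CGGAAG, 1 form of ETS site (13.6%), on either strand, were in none of the 3. Only these exact letters were searched, so other forms of either site may be present. RefSeq promoter windows were found by name for 8 of the 9 genes, all but Cd4. Bases just after the start were found in an annotated transcript of the gene for the 3 windows shown. They were not found for the Il7r window or for 1 of the Zap70 windows.

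Receptor and kinase transcripts were low but well detected in control medium and nearly lost in every conditioned medium. Values are in CPM, read counts relative to library size, scaled by TMM, a normalization that assumes most genes do not change. Cd3d had 9.76 and 11.1 CPM in the controls and 0.293 (VpR83), 0.357 (VpR99), 0.549 (VpR126) and 0.443 CPM (VpR2020) in conditioned medium. Each conditioned library was thus far below both controls, and the conditioned mean was 3.93% of the control mean. The log2 fold change was -4.68 ± 0.33 (SE; edgeR quasi-likelihood test, Benjamini-Hochberg adjusted p = 0.00046; 2 against 4 libraries). Cd3e had 4.83 and 6.44 CPM in the controls, and 0.256, 0.308, 0.676 and 0.166 CPM in the 4 media in the same order (-3.99 ± 0.52, edgeR adjusted p = 0.0023). Cd3g had 6.90 and 8.18 CPM in the controls and 0.146, 0.146, 0.549 and 0.277 CPM in the media (-4.82 ± 0.57, edgeR adjusted p = 0.0017). Among the conditioned libraries VpR126 was the highest for each of the 3 chains, and without it the log2 fold change of Cd3g was -5.40. The Cd3e exons share 135 bases with the antisense gene Gm48719.

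Cd247, whose product carries more ITAMs than any other chain of the complex (chromosome 1, 165788681 to 165877277, ENSMUSG00000005763), had 3.5 and 3.81 CPM in the controls. It had 0.183 (VpR83), 0.211 (VpR99) and 0.507 CPM (VpR126) and 0 counts in VpR2020 medium, where 3 counts would be 0.166 CPM. Again no conditioned library reached the controls, and Cd247 fell by 3.98 ± 0.80 on the log2 scale (edgeR adjusted p = 0.0098). It was no longer called without control replicate 1 or 2 (edgeR adjusted p = 0.058 and 0.061, range over alternatives 1.1e-06 to 0.061), when the lone control is assumed to vary like the conditioned libraries. Its exons share 3007 bases with Pou2f1 on the other strand, and the strand setting of the counting is unknown. The same exons share 206 bases with Gm16565 on the same strand. Pou2f1 had 489 counts in VpR2020, where Cd247 had 0.

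The kinases followed the receptor chains. Lck, the SRC-family kinase that starts receptor signalling (chromosome 4, 129548344 to 129573641, ENSMUSG00000000409), was at 22.5 and 22.3 CPM in the controls and at 0.988 (VpR83), 1.97 (VpR99), 2.96 (VpR126) and 0.609 CPM (VpR2020) in the media (-3.76 ± 0.56, edgeR adjusted p = 0.0036). Its 2 control values lay within 1 CPM of each other, and all 4 media lay below them. Per count of the CD3 chains there were 1.04 and 0.867 counts of Lck in the controls and 2.43 in VpR99 medium (exact 95% counting interval 1.92 to 3.10, above the controls' highest bound of 1.17), while VpR83 and VpR2020 had 1.42 and 0.688, with intervals that overlap those of both controls. The interval of VpR126 (1.67, 1.12 to 2.505) overlapped that of control replicate 1 only. Zap70, the kinase that binds phosphorylated ITAMs (chromosome 1, 36761798 to 36782818, ENSMUSG00000026117), went from 4.8 and 5.59 CPM to 0.0732, 0.146, 0.507 and 0.0553 CPM (-4.74 ± 0.74, edgeR adjusted p = 0.0042, and -5.51 without VpR126). The VpR83 and VpR2020 values of Zap70 rest on 2 and 1 counts, a ratio of control to medium of 70.0 (exact 95% counting interval 19.2 to 581) and 92.7 (16.5 to 3675). Counting intervals cover counting error only.

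Cd8a, the coreceptor chain of cytotoxic T cells (chromosome 6, 71373427 to 71379173, ENSMUSG00000053977), had the smallest fitted fall of the 7 genes called lower. It had 5.80 and 8.04 CPM in the controls and 0.842, 0.835, 1.48 and 0.664 CPM in the 4 media, again in that order (-2.85 ± 0.39, edgeR adjusted p = 0.0027), so 13.8% of the control mean was left. Its partner chain gene Cd8b1 fell by 3.56 ± 0.48. In the controls there were 0.994 and 1.10 counts of Cd8a for each count of Cd8b1, and in VpR99, the deepest library, 2.02 (exact 95% counting interval 1.43 to 2.88, against 0.801 to 1.23 and 0.877 to 1.37 in the controls). In the other media the ratio was 1.46 (VpR126) to 2.0 (VpR2020), with intervals that overlap those of the controls. Against the summed CD3 chains, Cd8a had 0.270 and 0.313 counts per count in the controls and 0.750 to 1.21 in the media. The intervals of VpR83, VpR99 and VpR126 (lowest bound 0.517) lay above those of both controls (highest bound 0.372), and that of VpR2020 (0.324 to 1.69) overlapped.

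**Figure D1:**
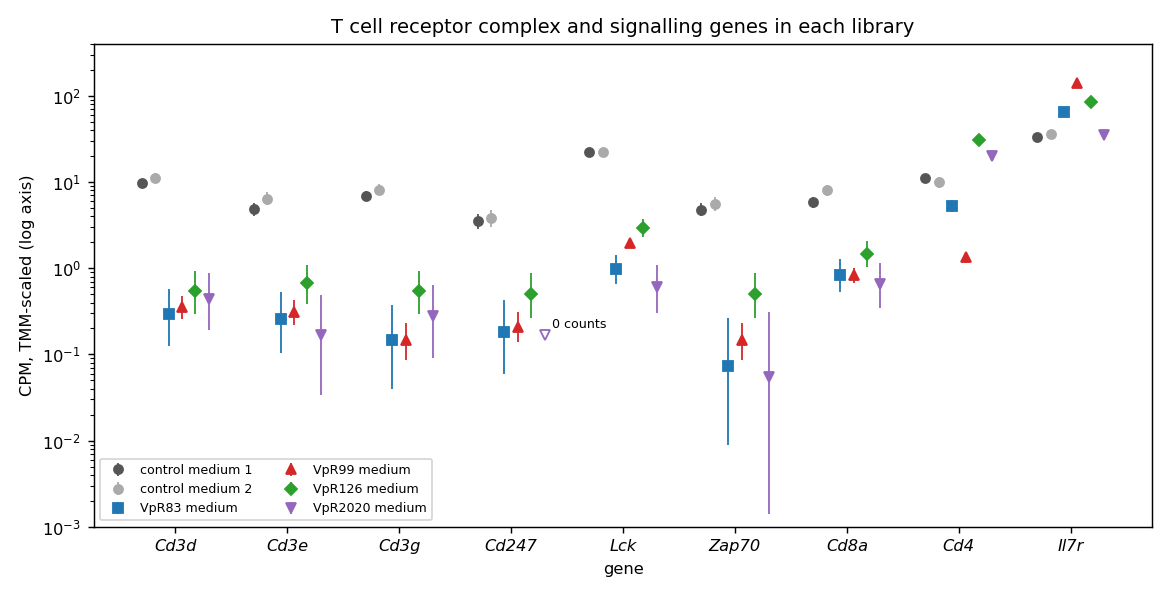
TMM-scaled CPM on a log axis of the 9 genes in the 6 libraries; bars are exact 95% Poisson intervals of the count, and the open symbol marks a library with 0 counts, drawn at the value of 3 counts. The 4 conditioned libraries lie below both controls for the 7 genes from Cd3d to Cd8a, while those of Cd4 and Il7r spread around or above the controls.

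In all, 7 of the 9 genes were called lower and 0 higher, where 19.7% of the 15141 genes tested were called lower and 22.5% higher. The set was chosen with earlier results of these data known, so these shares only describe it. With all conditioned libraries below both controls there were the same 7 genes, against 33.3% of tested genes, and 0 had all of them above both controls, against 32.0%. The median log2 fold change of the 9 genes was -3.98, and that of all genes tested was -0.01. No other tested scaling or tool changed the call of any of the 7, whose adjusted p-values stayed below 0.05 except for those of Cd247 given above. The lower and higher calls over all genes numbered 2983 and 3410, but 4104 and 2738 under upper-quartile scaling and 4171 and 2627 with library totals only. Those scalings moved the median of all genes to -0.22 and -0.26, far less than the falls described here. In bulk samples fewer cells of a type and less RNA per cell cannot be told apart.

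Per length of their exons the genes differed in level as well. In control medium the mean CPM per kilobase of exon was 7.64 for Lck, 7.51 for Il7r, 5.75 for Cd3d, 2.61 for Cd4, 2.31 for Cd3g, 1.90 for Cd8a, 1.74 for Zap70, 1.38 for Cd3e and 0.685 for Cd247. In conditioned medium the order was led by Il7r (17.4) and Cd4 (3.58), with Lck at 0.557 and the other 6 genes between 0.0422 and 0.263. In control medium the neighbours Lck and Il7r, Cd4 and Cd3g, and Cd8a and Zap70 each changed places between the 2 libraries, so the order within these pairs is not settled.

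Cd4 and Il7r did not follow the complex. Cd4, the coreceptor gene of helper T cells and also a gene of some macrophages and dendritic cells in mice (chromosome 6, 124864692 to 124888221, ENSMUSG00000023274), had 11.1 and 9.92 CPM in the controls. It had 5.27 CPM in VpR83, 1.34 in VpR99, 31.0 in VpR126 and 20.2 in VpR2020 medium. The controls thus lay between VpR83 and VpR99 on the lower side and VpR126 and VpR2020 on the higher, and the overall difference was not called (0.45 ± 1.08, edgeR adjusted p = 0.75, and -0.25 without VpR126). Conditioned libraries lay on both sides of the control pair for 18.7% of all genes tested. Per count of the summed CD3 chains there were 0.516 and 0.386 counts of Cd4 in the controls, while the media had 7.58 (VpR83), 1.65 (VpR99), 17.5 (VpR126) and 22.8 (VpR2020). The lowest of the media, VpR99, had an exact 95% counting interval of 1.28 to 2.14, above the controls' highest bound of 0.590.

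Il7r, which encodes the interleukin 7 receptor alpha chain (chromosome 15, 9505788 to 9530176, ENSMUSG00000003882), had 33.7 and 36.4 CPM in the controls and 65.3 (VpR83), 139 (VpR99), 85.1 (VpR126) and 35.2 CPM (VpR2020) in the media. Of these, 3 media lay above both controls and VpR2020 lay between them. The difference of 1.22 ± 0.52 missed the threshold (edgeR adjusted p = 0.10). It was called higher without VpR2020 (1.48, edgeR adjusted p = 0.029) and by DESeq2 (adjusted p = 0.039, range over alternatives 0.029 to 0.31). For each count of the CD3 chains there were 1.57 and 1.42 counts of Il7r in the controls, and between 39.8 (VpR2020) and 172 (VpR99) in the media.

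The summed macrophage markers, unlike these 2 genes, were above both controls in every medium. All 10 markers on that list (Adgre1, Csf1r, Cd68, Mrc1, Mertk, Fcgr1, C1qa, C1qb, C1qc and Trem2) were called higher (8 of 10 without control replicate 1 or without replicate 2), and their summed level was 488 and 470 CPM in the controls and 10025 (VpR83), 6132 (VpR99), 15939 (VpR126) and 12648 CPM (VpR2020) in the media. Among the media, the order of the marker sum, VpR126, VpR2020, VpR83 and VpR99, was also that of Cd4, over 4 libraries and with no test. The order of Il7r was another, VpR99, VpR126, VpR83 and VpR2020. Of 10 dendritic cell markers, 5 were called lower (3 without control replicate 1 or without replicate 2), led by Siglech, Cd209a, Ccr9 and Flt3, and 1, Tcf4, higher (0 without either control or without VpR2020). Their summed level was 434 to 468 CPM in the controls and 325 to 500 CPM in the media. The largest part of that sum was Irf8, not called, with means of 255 CPM in the controls and 247 CPM in the media. The sum therefore says little of the other markers. B cell precursors, which also carry Il7r, had 8 of 11 markers called lower (3 without either control), with Dntt, Igll1, Vpreb1 and Cd79a leading, and summed levels of 1139 and 1336 CPM in the controls and 51.3 to 401 CPM in the media. The part of any of these cells in the values of Cd4 and Il7r was not tested. Of all genes tested, 19.7% were called lower and 22.5% higher.

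**Figure D2:**
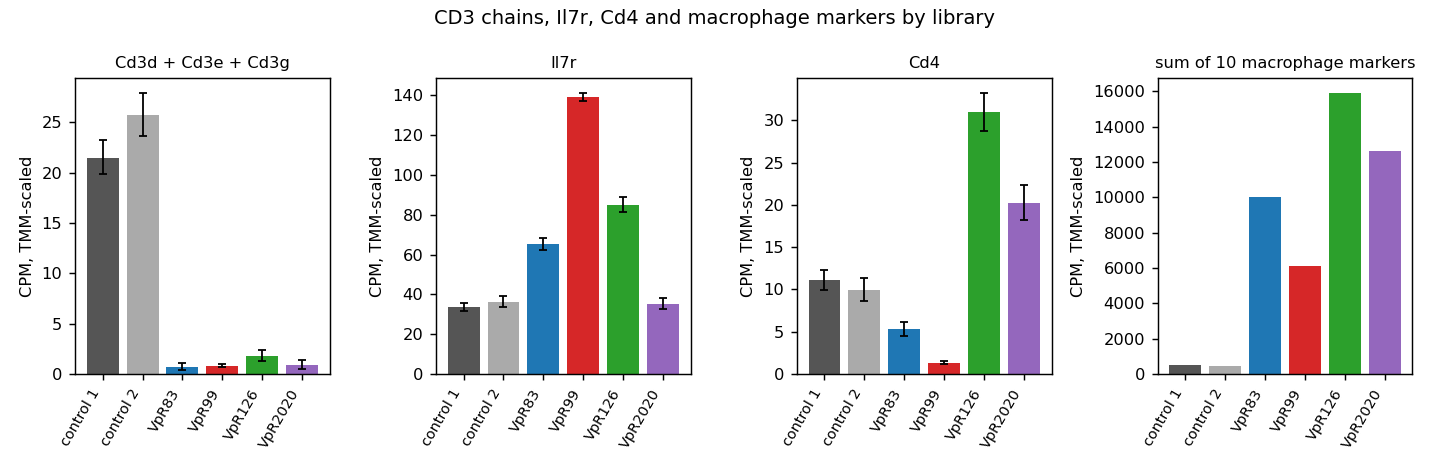
Bars give TMM-scaled CPM in each library of the summed CD3 chains, of Il7r, of Cd4 and of the sum of 10 macrophage markers; error bars are exact 95% Poisson intervals, not drawn for the marker sum. The CD3 sum fell from 21.5 and 25.7 CPM to between 0.696 and 1.77 CPM, while Il7r was highest in VpR99 medium and Cd4 in VpR126 medium.

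Line by line, the 7 complex, kinase and Cd8a genes were called lower in each of the 4 media. This test fitted every line as a level of its own, so that the spread came from the control pair alone (1 residual degree of freedom, moderated across genes) and each line was assumed to vary like it. Of all genes it called 28.2% lower and 28.2% higher in VpR83 medium, 25.5% and 28.4% in VpR99, 28.6% and 29.8% in VpR126, and 28.9% and 28.7% in VpR2020. The falls of Lck were -4.50 ± 0.30 (VpR83), -3.50 ± 0.25 (VpR99), -2.92 ± 0.26 (VpR126) and -5.19 ± 0.33 (VpR2020), with edgeR adjusted p-values of 1.2e-05 to 6.3e-05. The smallest fall of each of the 7 genes was the one in VpR126 medium, with log2 values of -2.22 (Cd8a) to -4.24 (Cd3d). In VpR2020 medium Cd247, at 0 counts, was at least 22.0-fold lower than the control mean, against 3 counts in that library. No line was tested against another.

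The same test put Cd4 on both sides. It was called lower in VpR83 (-0.997 ± 0.21, edgeR adjusted p = 0.0053) and VpR99 medium (-2.97 ± 0.23, edgeR adjusted p = 4e-05) and higher in VpR126 (1.56 ± 0.19, edgeR adjusted p = 0.00029) and VpR2020 medium (0.94 ± 0.19, edgeR adjusted p = 0.0043). Calls in both directions across the 4 media were made for 2.53% of all genes. Il7r was called higher in VpR83 (0.90 ± 0.14), VpR99 (1.99 ± 0.13) and VpR126 medium (1.28 ± 0.13; edgeR adjusted p = 0.0010, 2.1e-05 and 0.00015) and was not called in VpR2020 medium (0.01 ± 0.14, edgeR adjusted p = 0.96).

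**Figure D3:**
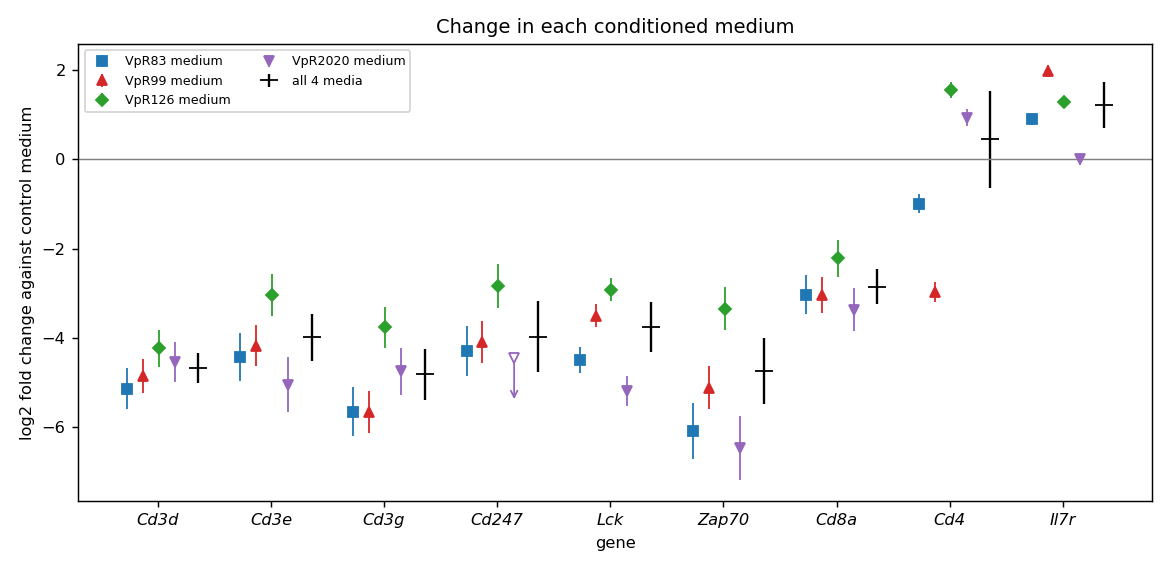
Log2 fold change against control medium of each gene in each conditioned medium (coloured symbols) and over all 4 media (black), with SE bars; the open symbol with an arrow is a bound for Cd247, which had 0 counts in VpR2020. For the genes from Cd3d to Cd8a the VpR126 symbol is the least negative, and Cd4 has 2 media on each side of 0.

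The constant segments of the receptor, which form the part of each chain next to the membrane, fell with the CD3 chains. Trac, of the alpha chain, had 7.80 and 9.40 CPM in the controls and 0.256 (VpR83), 0.243 (VpR99), 0.760 (VpR126) and 0.443 CPM (VpR2020) in the media (-4.38 ± 0.51, edgeR adjusted p = 0.0016). Trbc1 and Trbc2, of the beta chain, had log2 fold changes of -5.06 ± 0.68 and -4.30 ± 0.48, and Trdc, of the delta chain of gamma-delta T cells, -4.63 ± 0.43, all called lower. Summed over the 8 constant genes, the controls had 29.2 and 31.0 CPM and the media 0.988 to 2.41 CPM. The delta variable segment Trdv2-2 had 19 counts in the controls and 0 in the media, at least 23.8-fold lower against 3 counts over the group, or at least 8.53-fold without VpR99, the deepest library. It was too low to test without either control. Trbv13-1 had 23 and 3 counts, a ratio of 28.8 (exact 95% counting interval 8.69 to 149.6), or 15.5 (3.83 to 135.5) without VpR99. Its log2 fold change was -4.47, or -3.72 without VpR99, and it was not called without control replicate 2 (edgeR adjusted p = 0.052, range over alternatives 0.0030 to 0.052).

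Some alpha variable segments went the other way. Trav13-4-dv7 had 0.0667 and 0.0470 CPM in the controls and 1.54 (VpR83), 1.22 (VpR99), 1.10 (VpR126) and 3.65 CPM (VpR2020) in the media (4.93 ± 0.86, edgeR adjusted p = 0.0059). Trav14-3 (3.70 ± 0.84, edgeR adjusted p = 0.014) and Trav13n-4 (3.52 ± 1.15, edgeR adjusted p = 0.049) were called higher too. Control counts were 3, 3 and 4 for these genes, and each lost its call without control replicate 1 or 2 (edgeR adjusted p = 0.057 to 0.18). Trav13n-4 was also lost without VpR83, VpR126 or VpR2020, by voom, with at least 10 counts in 4 libraries, with library totals only and under upper-quartile scaling (adjusted p = 0.053 to 0.070), and ranged from 2.73 (without control replicate 2) to 8.27 (without control replicate 1, the other control having 0 counts). Over the 20 Trav13 and Trav14 segments, grouped after their values were seen, the sum was 0.600 and 0.376 CPM in the controls and 4.21, 2.74, 3.80 and 11.2 CPM in the media. The other 123 variable segments had 6.77 and 6.81 CPM in the controls and 0.705 to 1.23 CPM in the media. Their sum fell, but it includes Trav7n-4 (1 control and 18 conditioned counts) and Trav3-4 (0 and 10), which were too low to test. Both lay above both controls in every medium. Mouse alpha variable families hold duplicated, closely similar members, and how reads were shared among them is unknown, so values of single segments are uncertain. Segments could pass the low-count filter through 1 group alone, as Trdv2-2 did through the controls. Their calls and median therefore lean toward segments that differ between the groups. Over all genes tested, 19.7% were called lower and 22.5% higher. Of 225 receptor segments 16 had enough counts to test, of which 11 were called lower and 3 higher, with a median log2 fold change of -3.86. Without control replicate 1 or 2 the numbers were 5 and 0 in each case, and without VpR99 5 were called higher.

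**Figure D4:**
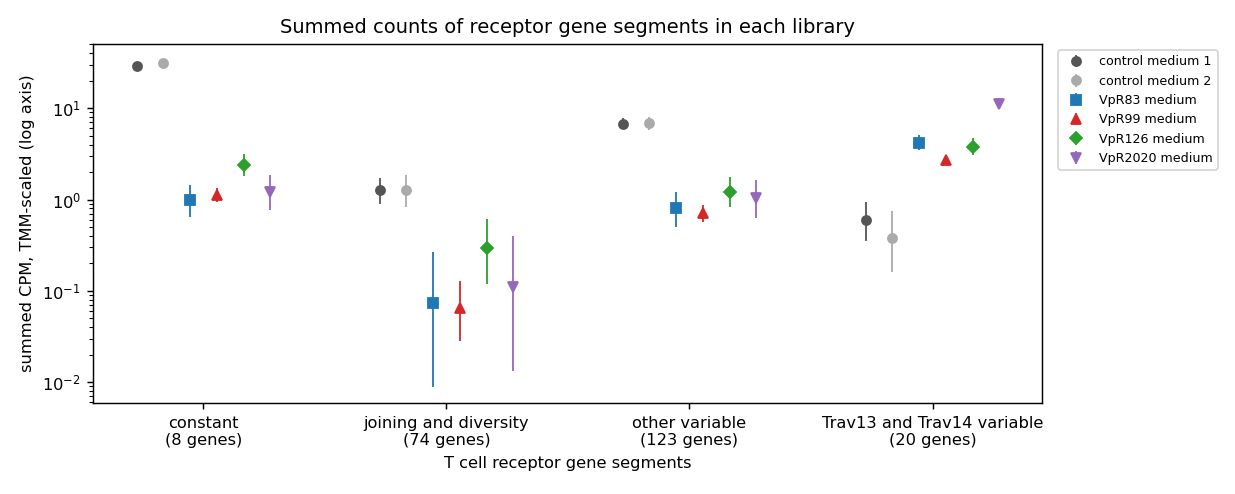
Summed TMM-scaled CPM on a log axis of T cell receptor constant, joining and diversity, and variable segments in each library, with exact 95% Poisson intervals of the summed count. The conditioned libraries lie below the controls in all sets but the 20 Trav13 and Trav14 segments, where they lie above them. That set was grouped after its values were seen.

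Downstream and accessory genes of the receptor fell in part. Of 28 tested, 13 were called lower, 2 higher and 13 were not called, with a median of -2.18, while Trat1 and Cd40lg had too few counts to test. Of all genes tested, 19.7% were called lower and 22.5% higher, so the higher calls were below that share. Ctla4, an inhibitory receptor, had 3.30 and 0.470 CPM in the controls and 0 to 0.127 in the media (-5.06 ± 0.98, edgeR adjusted p = 0.0088). It was not called without control replicate 1 (-3.05, edgeR adjusted p = 0.11, range over alternatives 7e-05 to 0.11), and its log2 fold change was -5.83 without replicate 2. The adaptor genes Skap1, Sh2d2a and Sit1 were called lower, with log2 fold changes of -4.49 ± 0.55, -3.98 ± 0.69 and -3.88 ± 0.70. Among the 13 genes not called were the phosphatase gene Ptprc (592 ± 62.8 and 630 ± 133 CPM, SD, n = 2 and 4) and the kinase gene Csk (292 ± 26.9 and 246 ± 24.7 CPM, SD, n = 2 and 4). The adaptor gene Lat, which ZAP70 phosphorylates, had 555 counts over both controls (mean 10.8 CPM) and 1.10 (VpR83), 1.29 (VpR99), 10.8 (VpR126) and 1.83 CPM (VpR2020) in the media. It was not called (-1.54 ± 0.95, edgeR adjusted p = 0.22), but without VpR126, the library at the control level, it was called lower (-2.95, edgeR adjusted p = 0.0017, range over alternatives 0.0017 to 0.43).

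The 2 genes called higher were Cd28 and Nfatc2. Cd28, the costimulatory receptor of T cells, had 5.97 and 3.57 CPM in the controls and 134 (VpR83), 125 (VpR99), 161 (VpR126) and 249 CPM (VpR2020) in the media (5.13 ± 0.45, edgeR adjusted p = 0.00089, range over alternatives 1.4e-35 to 0.016). All 4 media exceeded both controls by over 20-fold, in the direction opposite to the CD3 chains. Nfatc2, a calcium-dependent transcription factor downstream of the receptor and of other ITAM receptors, had 9.16 and 10.3 CPM in the controls and 77.2, 56.5, 116 and 107 CPM in the media (3.19 ± 0.36, edgeR adjusted p = 0.0015). Both genes remained called in all 14 alternative settings.

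Regulators of T cell identity were lower in 9 of 15 tested, 0 were called higher and 6 were not called (median -2.23), and Ptcra was too low to test. The shares over all genes were 19.7% lower and 22.5% higher. Thy1, a surface marker of T cells, had a log2 fold change of -4.20 ± 0.52, and the transcription factor genes Lef1, Bcl11b and Gata3 had -3.45 ± 0.68, -3.09 ± 0.54 and -2.87 ± 0.47, all called lower. Without control replicate 1 only 4, and without replicate 2 only 5, of the list were called lower, and without VpR99 or VpR126 1 was called higher. Bcl11b and Gata3 were lost without replicate 1 (edgeR adjusted p = 0.051 each, ranges 4.5e-06 to 0.051 and 1.1e-05 to 0.051) and Lef1 without replicate 2 (0.064, range 4.1e-06 to 0.064).

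Of 10 tested genes that work with Il7r, 2 were called higher and 0 lower, where 22.5% of all genes were called higher and 19.7% lower, so the higher calls were near the background. Their median was 0.09, and Il7 was too low to test. But 3 were called lower and 1 higher under upper-quartile scaling or with library totals only. Jak3, the kinase of the common gamma chain, had 27.2 and 28.4 CPM in the controls and 86.0, 95.5, 82.6 and 62.8 CPM in the media (1.56 ± 0.20, edgeR adjusted p = 0.0022). Jak1, the kinase of the Il7r chain, rose by 0.64 ± 0.16 (edgeR adjusted p = 0.022) and was not called under those scalings or without either control (0.071, 0.078, 0.13 and 0.13, range 0.0014 to 0.13). Without control replicate 1 or 2, 1 gene was called higher, and without VpR126 or VpR2020 1 was called lower. Il2rg, the common gamma chain itself, had 26.1 and 28.5 CPM in the controls and 37.5 (VpR83), 61.9 (VpR99), 117 (VpR126) and 38.8 CPM (VpR2020) in the media (edgeR adjusted p = 0.095).

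NK cells share Cd247, Lck and Zap70 with T cells, and their markers were lower as well. Of all genes tested, 19.7% were called lower. Of 13 NK markers 11 were called lower and 0 higher (median -4.91, also with Gzma at its bound; 4 called lower with at least 10 counts in 4 libraries, a filter that drops genes low in the media), and their summed level went from 171 and 166 CPM to 14.8 to 35.6 CPM. Leading were Gzma, which had 507 control counts and 0 conditioned counts (at least 634-fold lower against 3 counts over the group, or at least 228-fold without VpR99, the deepest library), Ncr1, Eomes and Klre1. Their part in the falls of Cd247, Lck and Zap70 was not tested. Of 10 tested genes listed as myeloid counterparts of the receptor's ITAM machinery, 3 were called higher and 0 lower (median 0.19), where 22.5% of all genes were called higher. The list includes Fyb, an adaptor gene that T cells also use and that was not counted among the accessory genes above. The ITAM adaptor gene Fcer1g, the LAT-like adaptor gene Lat2 and the adaptor gene Fyb rose, with log2 fold changes of 0.97 ± 0.21, 1.92 ± 0.33 and 1.90 ± 0.36. Without control replicate 1 or 2 none of the 3 was called (edgeR adjusted p = 0.057 to 0.12), and the kinase gene Fgr (-1.57, edgeR adjusted p = 0.05004) was called lower without VpR99 (-1.97, edgeR adjusted p = 0.019) or VpR2020 (-1.30, edgeR adjusted p = 0.0499), range over alternatives 0.0093 to 0.19. Syk, the relative of Zap70 used by myeloid and B cells, had 431 ± 33.9 and 505 ± 151 CPM (SD, n = 2 and 4) and was not called (edgeR adjusted p = 0.53). Of 3 tested markers of type 2 innate lymphoid cells, which also carry Il7r, Il1rl1 and Klrg1 were called lower and Rora higher. Klrg1 had 22 control counts and 1 conditioned count, so it passed the filter through the controls alone and was too low to test without either control. Areg, Il5 and Il13 of that list were too low to test.

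**Figure D5:**
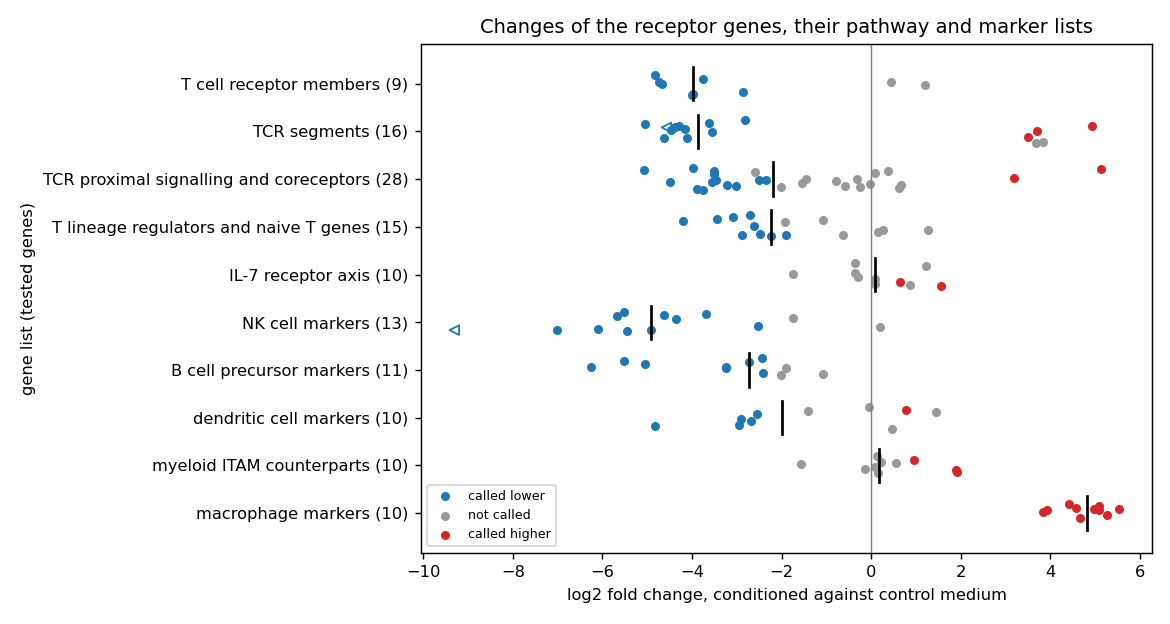
Each point is the log2 fold change of 1 tested gene, conditioned against control medium, coloured by call; black ticks are medians of the fitted values, and open triangles are bounds for genes with 0 conditioned counts. The receptor members, receptor segments and NK markers centre between -3.86 and -4.91, the myeloid ITAM genes near 0, and the macrophage markers at 4.82.

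The genes nearest in pattern were found by the root mean square distance of centred log2 CPM over the 6 libraries. Those nearest to Cd3e were Ctsw, Fam71b, Bmp1, Trbc2 and Cd8b1 (distances of 0.18 to 0.24 log2 units). Of the receptor set itself, Lck was closest to Cd3e (0.30, rank 14 of 15081 genes), and Cd4 and Il7r were far from it (2.21 and 2.42). The nearest to Il7r were Cgas, Naa25, P2ry10b, Lsr and Prokr1 (0.19 to 0.29), and the nearest to Cd4 were Chp2, Capn3, Sult1a1, Colca2 and Stab2 (0.43 to 0.63). Stab2 had 4.33 and 3.90 CPM in the controls and 2.34, 1.42, 32.2 and 8.96 CPM in the 4 media in the order used above, low and high in the same libraries as Cd4.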

How the data were processed

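The authors deposited raw counts of reads for each gene, keyed by Ensembl identifier, with no normalization. Libraries were stranded TruSeq, per the labels' protocols. The submitters' processing notes name Trimmomatic 0.38, STAR 2.5.2b and GRCm38. Not given in the sources used here: how reads were counted, with which strand setting and annotation. Control columns are headed as bone marrow only. GENCODE M21 gave names and coordinates for 45143 of 45706 identifiers. Totals ranged from 18629708 to 129120559 counts (VpR99), so 3 counts equal 0.0232 to 0.161 CPM of the total.

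Counts were filtered with filterByExpr, scaled by TMM and tested in edgeR 4.0.16 (R 4.3.3) by the robust quasi-likelihood test, two-sided, with Benjamini-Hochberg adjustment over 15141 genes and calls at adjusted p below 0.05. Standard errors (SE) are the size of the log2 fold change over the root of the F statistic. The scripts were tested on simulated data. Alternatives were 3 scalings, 2 filters, DESeq2 1.42.0, limma 3.58.1 voom, thinning of VpR99 and leaving out each library. Leaving VpR99 out of pooled counts was added after seeing the data. Members and lists were chosen with earlier results of these data known. From each of 10 lists up to 4 called genes per direction were named by size, and the 5 genes nearest to Cd3e, Il7r and Cd4. Trac, Trbc2, Cd8b1, Lat, Ptprc, Csk, Il2rg, Syk and Fgr were added after their values were seen.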

Additional observations from a re-analysis of the deposited data

Results flagged for a closer look

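Cd4 lay on opposite sides of the control libraries in different conditioned libraries. Of all genes tested, 18.7% had conditioned libraries on both sides of the control pair, and 2.53% were called in both directions line by line. Its log2 fold change was 1.56 in VpR126 and 0.94 in VpR2020 medium, and -0.997 in VpR83 and -2.97 in VpR99 medium. Each value was called against the control pair, whose spread alone entered the test. With 1 library per line the difference between lines was not tested, and medium and library cannot be told apart.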

How the results depend on the processing

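The number of receptor genes called lower was 7, or 6 without either control, in all 14 settings. The number called higher was 0, but 1 by DESeq2, and between 0 and 1 when each library was left out, the 1 being Il7r without VpR2020. Counts per line did not differ by over 1.5 times under RLE, upper-quartile or library-total scaling or without a low-count filter. The fold change of Cd4 was -1.08 by voom and -0.25 (without VpR126) to 0.84 when each library was left out. Of its nearest genes in pattern, Chp2, Capn3, Colca2 and Stab2 had -1.17, -0.36, -0.50 and -0.15 by voom, and Colca2 -0.26 (without VpR126) to 0.87 when each was left out. Ptprc had -0.12 under upper-quartile scaling, -0.15 with library totals and -0.0423 (without VpR126) to 0.20 when each was left out, and Syk -0.0222 with library totals. None of these genes was called. The cause was not tested. Of 1005 values of named genes under alternatives, 926 kept direction and side of the threshold, 47 lost a call, 21 gained one and 11 changed sign. Over all genes, 918 lower and 1283 higher calls were made without control replicate 1, and 991 and 1299 without replicate 2. Of receptor segments, 24 were called lower without a low-count filter and 3 with at least 10 counts in 4 libraries. Folds of genes with few conditioned counts are limited by depth. No paired analysis was possible because only the controls carry replicate numbers.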
